A study of Mus musculus with 154 samples.

Results

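The genes described here are 41 liver genes of amino acid catabolism and the urea cycle. They were taken by gene symbol from a fixed list, and no measured value enters the rule. The list itself was drawn up with earlier results of these data known, so it is not an independent choice. The list holds 8 genes of the urea cycle and ammonia entry, 4 of tyrosine, 4 of tryptophan, 6 of transamination, serine and glyoxylate, 3 of proline, 7 of methionine, betaine and transsulfuration, 3 of lysine and branched chains, 4 of histidine and 2 of glycine cleavage. All 41 of the 41 symbols were found among the 13289 genes of the count table, after matching Ensembl IDs to GENCODE names. The lowest count of any of them in any mouse was 74 reads.

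RNA of the caudate lobe of the liver was sequenced from mice of 24 strains, male per the study's methods, at 5 weeks of age and after an overnight fast. The host strain C57BL/6J (B6) served as control, with 20 mice. In a chromosome substitution strain (CSS), 1 chromosome pair of B6 is replaced by that of the strain A/J, and every CSS mouse used here was an F1 animal with 1 A/J copy and 1 B6 copy of each substituted chromosome, on a genome that is otherwise B6. The 8 single CSSs (63 mice, 7 to 8 each) were labelled, sire first, (B6 X B6.A3)F1, (B6.A4 X B6)F1, (B6.A5 X B6)F1, (B6 X B6.A6)F1, (B6.A8 X B6)F1, (B6.A10 X B6)F1, (B6 X B6.A14)F1 and (B6 X B6.A17)F1, and are written below as A3 to A17. The 15 double CSSs (71 mice, 3 to 6 each) came from dams of B6.A3, B6.A6, B6.A14 or B6.A17 and sires of B6.A4, B6.A5, B6.A8 or B6.A10, and are written dam first, so that A14:A8 stands for (B6.A8 X B6.A14)F1. One A3:A5 mouse, labelled (B6.A5 X B6.A3) without F1, was placed with its cross. Each chromosome always came through the same parent, so a substitution and the parent that passed it on cannot be told apart, and only effects of a single A/J copy could be seen.

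Between 4638701 and 30465477 reads per mouse were counted in genes, with a median of 16116424. Levels are given as CPM, the reads of a gene scaled to a common library size. The summed level of 6 hepatocyte markers had a median of 99043 CPM in B6, against 47.5 CPM for the 2 of 6 skeletal muscle markers and 4.64 CPM for the 1 of 6 pancreas markers that the table holds. In mouse E733 of A14:A4 the summed Y-linked genes reached 2.94 CPM, where every other mouse had 228 CPM or more, which goes against its stated sex, and the 1 cross it belongs to is also counted without it.

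Amino acids that are not needed for protein are degraded mainly in the liver, above all in fasting, when their carbon skeletons feed gluconeogenesis. Transaminases move the amino group onto glutamate and aspartate, ammonia enters the mitochondrion's first step of the urea cycle as carbamoyl phosphate, and the cycle ends with arginase, which releases urea and returns ornithine. Separate pathways with their own committed steps break down tyrosine, tryptophan, histidine, lysine, the branched chains, proline, glycine and methionine. Many of these genes are known to respond to glucagon and glucocorticoids and are enriched in periportal hepatocytes.

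The members that the results below turn on most are Got1, Tat and Agxt, which fell in A8, and Otc, which did not. Their upstream sequences are shown so that the promoters of members that moved in opposite directions can be compared. A RefSeq promoter (GRCm38.p6) was matched for 31 of the 41 symbols. The sequences give the 250 bases before the transcription start, 5′ to 3′ on the strand of the gene, with the letters of any motif searched in capitals. Got1 lies at chr19:43524606-43524855 on the minus strand, Tat at chr8:109990186-109990435 on the plus strand, Agxt at chr1:93134990-93135239 on the plus strand and Otc at chrX:10252055-10252304 on the plus strand.
Got1: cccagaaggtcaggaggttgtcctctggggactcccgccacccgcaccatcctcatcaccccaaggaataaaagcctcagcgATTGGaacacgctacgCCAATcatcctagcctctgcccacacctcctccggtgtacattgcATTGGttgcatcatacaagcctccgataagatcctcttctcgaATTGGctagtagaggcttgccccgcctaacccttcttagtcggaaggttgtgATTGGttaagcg
Tat: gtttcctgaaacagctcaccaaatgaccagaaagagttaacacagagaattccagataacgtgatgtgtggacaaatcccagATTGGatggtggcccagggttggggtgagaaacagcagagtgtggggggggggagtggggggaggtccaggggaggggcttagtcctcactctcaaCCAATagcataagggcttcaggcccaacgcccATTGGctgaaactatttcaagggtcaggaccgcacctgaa
Agxt: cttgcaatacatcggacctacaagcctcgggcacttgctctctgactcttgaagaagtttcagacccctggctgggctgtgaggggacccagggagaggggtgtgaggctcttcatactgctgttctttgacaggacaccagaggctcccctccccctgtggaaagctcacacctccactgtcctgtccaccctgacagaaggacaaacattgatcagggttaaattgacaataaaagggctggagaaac
Otc: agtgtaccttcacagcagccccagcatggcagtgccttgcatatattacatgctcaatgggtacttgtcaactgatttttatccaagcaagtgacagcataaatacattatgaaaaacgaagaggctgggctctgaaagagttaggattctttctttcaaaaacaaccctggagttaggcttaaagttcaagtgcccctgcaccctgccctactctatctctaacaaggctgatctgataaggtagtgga

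The motifs were searched on both strands as plain letters. The CCAAT box (CCAAT) was found in 16 of the 37 promoters of these genes (43.2%; some genes have several starts) and in 33.8% of the 32851 promoters of the table. The capitals above are its matches: 5 in Got1, 3 in Tat and none in Agxt or Otc. The TATA box (TATAAA) stood in 10.8% of the members' promoters and 12.4% of all, the C/EBP motif (TTGCNNAA) in 10.8% and 9.56%, and the core of the cAMP response element (TGACG) in 8.11% and 17.8%. The full cAMP response element (TGACGTCA, which holds that core), the HNF4 site (CAAAGTCCA) and the glucocorticoid response element were found in 0 of the 37, and in 1.55%, 0.384% and 0.387% of all promoters. These are matches of letters in the B6 reference, and neither binding nor the A/J sequence was measured.

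In B6, the levels of these genes, in CPM per kilobase (kb) of exon, spanned a wide range. Mat1a, which makes S-adenosylmethionine, stood first at 2957 ± 712 CPM per kb (SD, n = 20), and Cps1, the carbamoyl phosphate synthetase that opens the urea cycle, second at 1744 ± 347 CPM per kb. Hpd, Arg1, Tat and Gnmt followed at 1277, 1087, 1063 and 1004 CPM per kb, with SDs of 149 to 269, so that neighbours in this order did not differ beyond their spread. The lowest were Prodh (18.9 ± 2.96), Nags (17.2 ± 2.52), which makes the activator of Cps1, and Sdsl (16.7 ± 6.0). Among all genes of the table, Mat1a ranked 21 and Sdsl 1714.

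The spread between B6 mice differed from member to member. The median SD of log2 CPM over the 20 B6 mice was 0.24 for the 41 genes and 0.16 for the 4324 genes at or above the level of the lowest of them. Bhmt, which uses betaine to methylate homocysteine, was the most variable, with 4.05 times as much in its highest as in its lowest B6 mouse (SD 0.52). Got1 and Sdsl had an SD of 0.48, Fah only 0.07 and Bckdha 0.10. The standard error of the fold change in A8 was accordingly 0.19 for Got1 and 0.05 for Bckdha.

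Which substitutions changed these genes was asked with a model of 8 main effects, each the log2 difference between a substitution and B6, and 15 interactions, each the departure of a double CSS from the sum of its main effects on the log2 scale. The fit (edgeR quasi-likelihood, with 5 surrogate variables for unwanted variation) held all mice and genes, and an effect was called at a false discovery rate (FDR) under 0.05. All main effects share the same 20 B6 mice, and an interaction uses them as well as both single CSSs, so that the effects below are not independent of each other. Strain as a whole was called for 40 of the 41 genes, against 51.4% of all genes tested, with Gnmt the exception (FDR 0.179). The 15 interactions jointly were called for 31 of the 41, against 27.4% of all genes. Of 99 single main effects called, 92 were lower than B6 and 7 higher. Of 106 interactions called, 101 were positive and 5 negative. Over all genes, 5.74% of the main effects tested were called lower and 5.32% higher. Of the interactions tested over all genes, 3.35% were called positive and 2.61% negative. Bhmt and Gnmt had neither a main effect nor an interaction called.

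**Figure D1:**
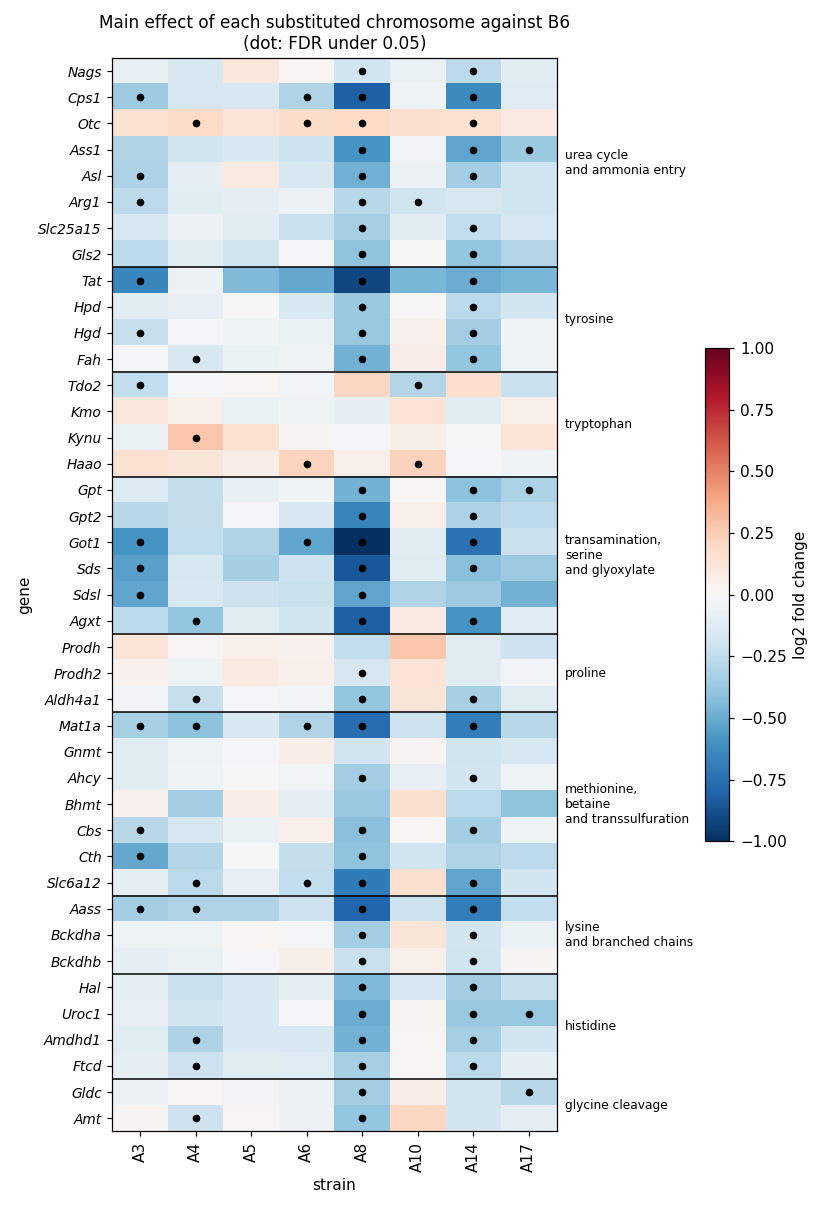
Log2 fold change of each of the 41 genes (rows, grouped by role) in each single CSS against B6 (columns), on a colour scale from blue (lower) to red (higher), with a dot where the FDR was under 0.05. The columns of A8 (33 lower, 1 higher) and A14 (27 lower, 1 higher) hold most dots, and Otc is the row that is red in every column.

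Of the 8 substitutions, chromosome 8 had the most members called. In A8, 33 members were lower and 1 higher than B6, where 16.7% of all genes tested were lower and 12.9% higher. The median fold change of the 41 genes was -0.39 on the log2 scale, against -0.01 for all genes, and single values ran from -1.0 to 0.21. Without the surrogate variables the median difference of the means was -0.52, and with 10 of them 22 members were called (9.2% of all genes in either direction) and the median was -0.27.

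The 6 genes of transamination, serine and glyoxylate were all called lower in A8 and had the lowest median of the 9 roles, -0.74. Got1 is the cytosolic aspartate aminotransferase. Its level was 280 CPM in the lowest B6 mouse, 644 at the median and 1021 in the highest, and 186.6, 272.1 and 361.4 CPM in A8, so that only the lowest B6 mouse lay within the A8 range. The fitted change of Got1 was -1.0 ± 0.19 (log2, SE; FDR 2.27e-05). Sds, which deaminates serine to pyruvate, went from 123.7, 248.8 and 372.5 CPM (lowest, median, highest) in B6 to 103.3, 136.1 and 155.1 CPM in A8. Sds fell by 0.85 ± 0.16 (FDR 2.04e-05). Agxt detoxifies glyoxylate in the peroxisome by transamination with alanine. All 8 A8 mice (89.6 to 151 CPM, median 121) lay below all 20 B6 mice (172 to 326 CPM, median 222) for Agxt, a change of -0.82 ± 0.11 (FDR 1.06e-09). Gpt2, the mitochondrial alanine aminotransferase, changed by -0.66 ± 0.11, Sdsl by -0.53 ± 0.17 and the cytosolic Gpt by -0.47 ± 0.10.

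In the urea cycle, 7 of 8 genes were lower in A8. Cps1 had 6138, 10035 and 13634 CPM in B6 and 3218, 4670 and 6516 CPM in A8, so that only the 2 highest A8 mice reached into the B6 range. The change of Cps1 was -0.82 ± 0.10 (FDR 2.78e-10). Ass1 and Asl, which join aspartate to citrulline and release arginine, changed by -0.59 ± 0.12 and -0.48 ± 0.10. The liver glutaminase Gls2 changed by -0.40 ± 0.11, the ornithine carrier Slc25a15 by -0.33 ± 0.09, the arginase Arg1 by -0.28 ± 0.07 and Nags by -0.19 ± 0.07. Otc, which forms citrulline, was the member called higher, by 0.20 ± 0.06 (FDR 0.00653). Its ranges overlapped throughout, at 307, 416 and 550 CPM in B6 and 360, 427 and 495 CPM in A8.

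All 4 tyrosine genes, which act in the same pathway, were lower in A8. Tat, the tyrosine aminotransferase of the first step, had 1331, 2750 and 3765 CPM in B6 and 822, 1265 and 1941 CPM in A8, with overlap between the groups. It fell by 0.91 ± 0.21 (FDR 1.83e-04). Fah, the last step, varied little in B6 (391, 444 and 479 CPM) and was lower in each of the 8 A8 mice (232.4, 283.7 and 385.4 CPM), with no overlap. Its change was -0.47 ± 0.06 (FDR 2.78e-10). Hpd and Hgd changed by -0.37 ± 0.09 and -0.38 ± 0.08. By contrast, none of the 4 tryptophan genes was called in A8. Tdo2, the dioxygenase that opens the kynurenine pathway, had a fitted value of 0.21 ± 0.09 (FDR 0.0684), Haao 0.05 ± 0.06, Kynu -0.02 ± 0.08 and Kmo -0.10 ± 0.07.

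The 4 histidine genes, which follow each other from Hal to Ftcd, were all lower in A8, with a median of -0.46. Uroc1, the urocanate hydratase, had 232.8, 305 and 366.1 CPM in B6 and 157, 184 and 252 CPM in A8. Only 1 A8 mouse reached into the B6 range, and the change was -0.50 ± 0.09 (FDR 1.64e-06). Aass, the first enzyme of lysine breakdown, changed by -0.79 ± 0.12 (FDR 7.52e-08), and both subunits of the branched-chain ketoacid dehydrogenase on the list were lower, Bckdha by -0.34 ± 0.05 (FDR 5.04e-08) and Bckdhb by -0.22 ± 0.05. Bckdha ranged from 153.3 to 209.7 CPM in B6 (median 177.7) and from 113 to 159 CPM in A8 (median 123), so that 1 A8 mouse overlapped with B6. The glycine cleavage genes Amt and Gldc changed by -0.39 ± 0.08 and -0.34 ± 0.08. Amt stood at 36.6, 47.8 and 57.1 CPM in B6 and at 25.2, 33.1 and 44.2 CPM in A8, with overlapping ranges. In the breakdown of proline, Aldh4a1 (-0.39 ± 0.07) and Prodh2 (-0.17 ± 0.07) were lower, and Prodh was not called (-0.25 ± 0.11, FDR 0.0600).

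Of the 7 genes around methionine and betaine, 5 were lower in A8. Mat1a changed by -0.76 ± 0.11 and Slc6a12, a betaine and GABA transporter, by -0.70 ± 0.10 (FDR 4.65e-09). Slc6a12 had 68.5, 92.5 and 114 CPM in B6 and 35.8, 45.5 and 71.6 CPM in A8, where the 2 highest mice overlapped with B6. Cbs and Cth, which carry sulfur from homocysteine to cysteine, changed by -0.42 ± 0.09 and -0.40 ± 0.13, and Ahcy by -0.35 ± 0.07. Bhmt (-0.38 ± 0.17, FDR 0.0780) and Gnmt (-0.19 ± 0.09, FDR 0.0868) were not called.

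Chromosome 14 came next by the number of members called, with a wide spread between its mice. In A14, 27 members were lower and 1 higher, where 12.6% of all genes were lower and 9.98% higher, and the members' median was -0.31 (all genes -0.01). With 10 surrogate variables 14 members were called in A14 (5.96% of all genes). The largest changes among the called members were those of Got1 (-0.74 ± 0.18, FDR 0.00105), Aass (-0.69 ± 0.11, FDR 9.67e-07) and Mat1a (-0.69 ± 0.10, FDR 6.86e-08). Got1 ran from 114 CPM in the lowest A14 mouse over 439 at the median to 718 CPM in the highest, which covers most of the B6 range and extends below it. Aass ran from 247.1 to 858.8 CPM in A14 and from 484 over 812 to 1374 CPM in B6, with overlap. Agxt (-0.59 ± 0.10), Cps1 (-0.64 ± 0.09) and Slc6a12 (-0.53 ± 0.09) were lower as well. Slc6a12 was at 31.4 to 54.4 CPM in 4 A14 mice, below every B6 mouse, and at 78.9 to 99.1 CPM in the other 4, within the B6 range. Otc was again the member called higher (0.15 ± 0.06, FDR 0.0474), with 353.8, 412.5 and 453.6 CPM in A14. None of the 4 tryptophan and none of the 2 glycine cleavage genes was called in A14.

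**Figure D2:**
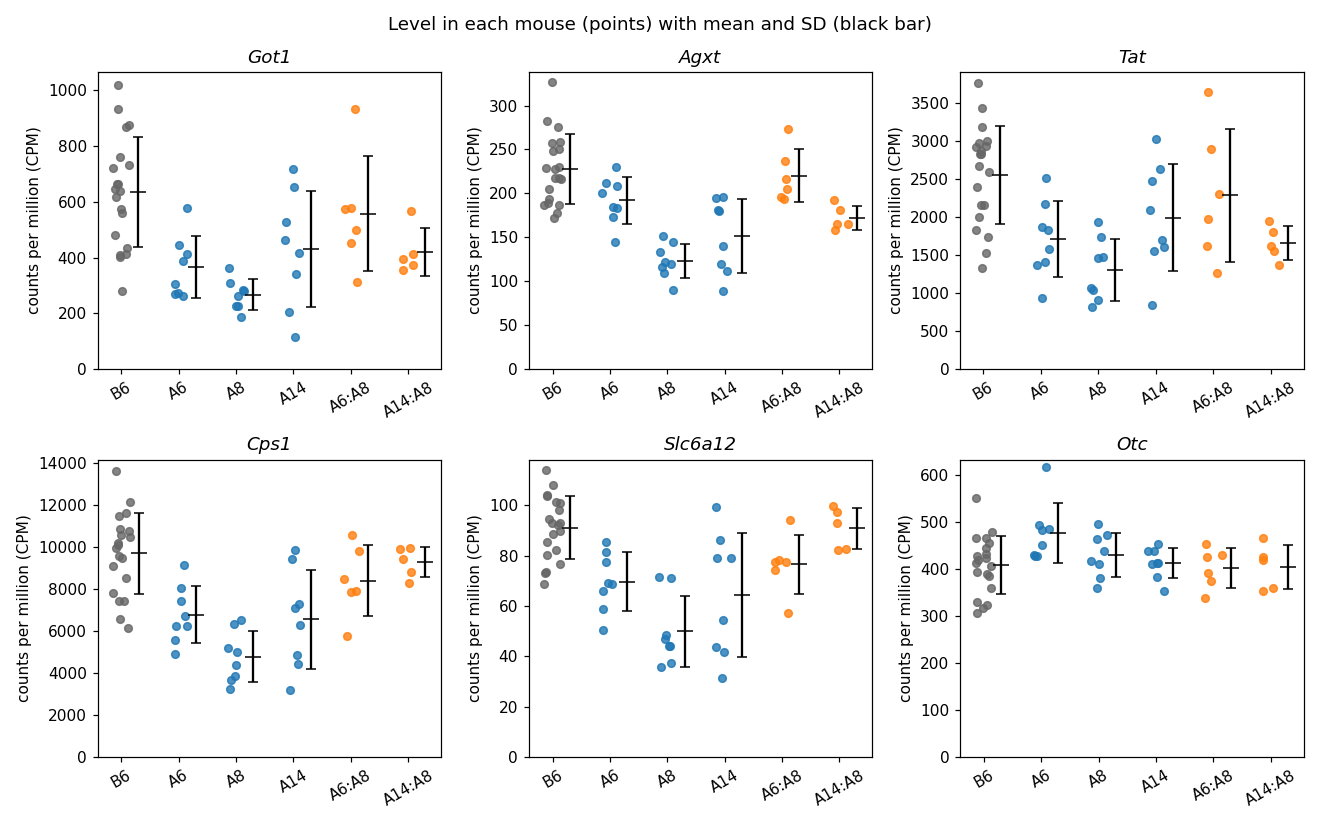
CPM (TMM-normalized, linear axes from 0) of 6 genes in each mouse of B6 (grey, n = 20), 3 single CSSs (blue, n = 8 each) and 2 double CSSs (orange, n = 6 and 5), with mean and SD as black bars. Agxt in A8 (89.6 to 151 CPM) lies below all B6 mice (172 to 326 CPM), and in A6:A8 it lies at 194 to 273 CPM, within the B6 range.

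The other substitutions changed fewer members. In A3, 13 were lower and 0 higher (all genes: 1.76% lower, 1.94% higher), among them Tat (-0.65 ± 0.18), Got1 (-0.60 ± 0.17), Sds (-0.54 ± 0.15) and Cps1 (-0.36 ± 0.09). Without surrogate variables 1 was called in A3 (0.918% of all genes in either direction) and with 10 of them 6 (3.46%). In A4, 9 were lower and 2 higher (5.88% and 7.6%), and 1 was called with 10 surrogate variables (2.71% of all genes). Mat1a (-0.41 ± 0.10) and Agxt (-0.39 ± 0.10) were lower there, and Kynu (0.28 ± 0.08) and Otc (0.19 ± 0.06) higher. In A6, 4 were lower and 2 higher (3.79% and 4.3%), and 0 were called by edgeR with 10 surrogate variables (3.01% of all genes). Got1 (-0.52 ± 0.17), Cps1 (-0.30 ± 0.09), Mat1a (-0.30 ± 0.10) and Slc6a12 (-0.25 ± 0.09) were on the lower side and Haao (0.22 ± 0.06) and Otc (0.18 ± 0.05) on the higher. In A10, Tdo2 (-0.29 ± 0.09) and Arg1 (-0.20 ± 0.07) were lower and Haao (0.23 ± 0.06) higher, against 2.97% lower and 3.66% higher of all genes. In A17, 4 were lower and 0 higher (1.96% and 1.71%), namely Uroc1 (-0.38 ± 0.08), Ass1 (-0.37 ± 0.11), Gpt (-0.32 ± 0.09) and Gldc (-0.28 ± 0.08). In A5 edgeR called 0 members, where 0.768% of all genes were called; 5 members had an unadjusted p under 0.05, as did 12.4% of all genes, and DESeq2 called 0.

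Some members lie on a substituted chromosome themselves. In all, 22 of the 41 lie on 1 of the 8 chromosomes, and 9 of these were called in the strain with their own chromosome replaced, 0 of them higher. Over all genes, 18.4% of the 5587 on a substituted chromosome were called in that strain, 9.38% lower and 9.04% higher. On chromosome 8 these were Tat (chr8:109990437-109999803, plus strand), Gpt2 (chr8:85492576-85527560, plus strand) and Slc25a15 (chr8:22375551-22398597, minus strand). On chromosome 3 they were Cth (chr3:157894248-157925077, minus strand; -0.51 ± 0.12, FDR 8.92e-04) and Tdo2 (chr3:81957090-81976202, minus strand; -0.25 ± 0.08, FDR 0.0201). The others were Aldh4a1 in A4 (chr4:139622866-139649690, plus strand; -0.23 ± 0.06), Slc6a12 in A6 (chr6:121343076-121365775, plus strand; -0.25 ± 0.09), Arg1 in A10 (chr10:24915221-24927484, minus strand; -0.20 ± 0.07) and Mat1a in A14 (chr14:41105035-41124412, plus strand). Positions are those of the whole genes in GENCODE vM21 (mm10). Cth had 641, 961 and 1646 CPM in B6 and 440, 780 and 1007 CPM in A3, and Tdo2 2381, 3579 and 4867 CPM in B6 and 2037, 3362 and 3460 CPM in A3, both with overlap. Aldh4a1 had 88.9, 100 and 114 CPM in B6 and 68.4, 83.0 and 102 CPM in A4, also with overlap. For Gpt2 only the lowest B6 mouse lay within the range of A8 (at most 470.8 CPM, median 414.8, against 444.8, 743.7 and 921.4 CPM in B6). Slc25a15 overlapped in part (334, 363 and 479 CPM in A8, 383.1, 504.8 and 745.1 in B6), with the A8 median below the lowest B6 mouse. Arg1 overlapped widely (1723, 2243 and 2519 CPM in A10, 1673, 2346 and 3250 in B6). Mat1a ran from 3066 over 7286 to 10914 CPM in A14 and from 6338 over 10617 to 14988 CPM in B6, with overlap. Each of these 9 genes was also called lower in at least 1 other single CSS, whose own substituted chromosome does not hold the gene.

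**Figure D3:**
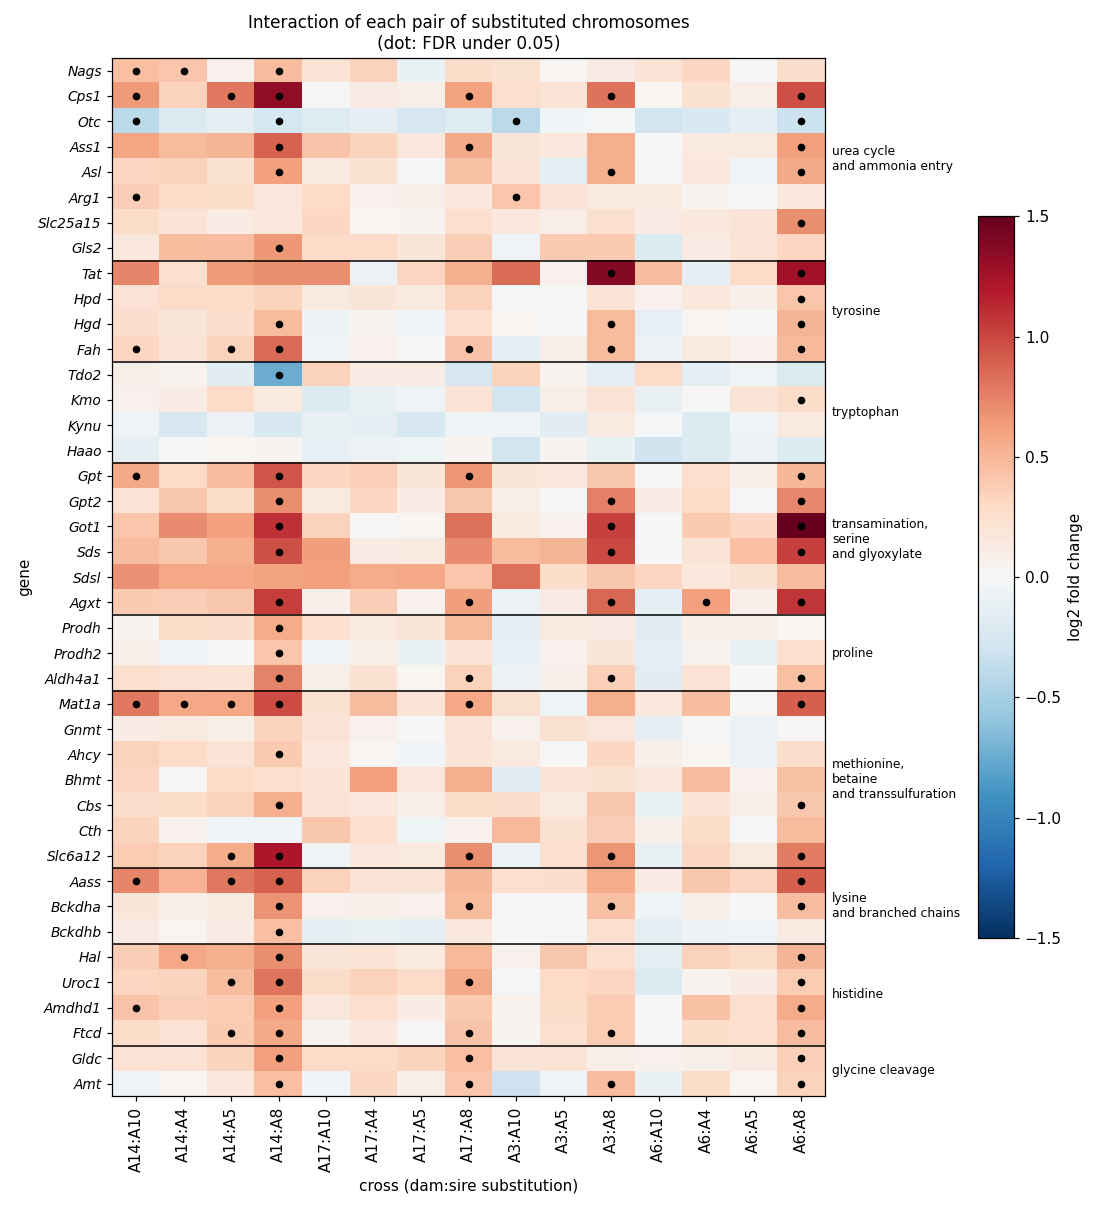
Interaction (log2, double CSS minus the sum of both main effects) of each of the 41 genes in the 15 crosses, blue below 0 and red above, with a dot where the FDR was under 0.05. A14:A8 (28 positive, 2 negative) and A6:A8 (26 positive, 1 negative) hold most dots, and Otc is blue where it is called.

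Whether these effects add up in mice with both substitutions was asked with the interactions. In A14:A8, 28 members had a positive and 2 a negative interaction, where 18.1% of all genes had a positive and 14.3% a negative one. The median of the 41 was 0.60, against 0.02 for all genes, and 0.75 as a plain difference of means without surrogate variables. The largest positive values were those of Cps1 (1.33 ± 0.16, FDR 1.68e-11), Slc6a12 (1.21 ± 0.15, FDR 6.23e-11) and Got1 (1.09 ± 0.30, FDR 0.00214). Cps1 was at 8303, 8796, 9416, 9891 and 9968 CPM in the 5 A14:A8 mice, all above the 8 A8 mice (3218 to 6516 CPM) and within the B6 range. Slc6a12 was at 82.1, 82.7, 92.9, 97.4 and 99.5 CPM, again above every A8 mouse. Got1 was at 355.3, 373.9, 393.6, 411.6 and 568.9 CPM, with only the lowest of them inside the A8 range and all below the B6 median. Agxt was at 158.7, 164.8, 165.7, 180.5 and 192.1 CPM, above all A8 mice, with an interaction of 1.04 ± 0.16 (FDR 1.42e-07). With 10 surrogate variables 20 members were called in A14:A8 (11% of all genes in either direction), with a median of 0.43.

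By role, the positive interactions in A14:A8 took in all 4 histidine genes, all 3 proline genes, all 3 of lysine and branched chains, both of glycine cleavage, 5 of 6 of transamination, 5 of 8 of the urea cycle, 4 of 7 around methionine and 2 of 4 tyrosine genes. Fah had 0.85 ± 0.09 (FDR 7.14e-13), with 417 to 454 CPM in the 5 mice against 232.4 to 385.4 CPM in A8. Uroc1 had 0.80 ± 0.14 (269 to 306 CPM), Aldh4a1 0.74 ± 0.11 (93.7 to 105 CPM), Bckdha 0.67 ± 0.08 (170 to 210 CPM), and Amt 0.45 ± 0.13 (37.3 to 50.6 CPM). Aass (0.88 ± 0.18), Mat1a (0.98 ± 0.17), Sds (0.97 ± 0.25) and Gpt2 (0.70 ± 0.17) were positive as well. Tat (0.70 ± 0.31, FDR 0.0755), Cth (-0.07 ± 0.20), Arg1 (0.17 ± 0.11) and Slc25a15 (0.17 ± 0.14) were not called.

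The cross of chromosomes 6 and 8 gave a like count. In A6:A8, 26 members had a positive and 1 a negative interaction, where 13.4% of all genes had a positive and 11.4% a negative one, with a median of 0.46 for the members and 0.02 for all genes. Got1 (1.51 ± 0.29, FDR 2.44e-05), Tat (1.26 ± 0.30, FDR 7.51e-04) and Agxt (1.07 ± 0.16, FDR 1.79e-07) had the largest. Agxt was at 194, 211 and 273 CPM (lowest, median, highest of 6 mice), above every A8 mouse and inside the B6 range. The study presents Agxt in this cross as lowered by each of the chromosomes alone. In the fit used here its main effect was called lower in A8 but was not called in A6, and the cause of this difference was not tested. Got1 was at 313, 538 and 932 CPM and Tat at 1265, 2142 and 3650 CPM, both overlapping with A8 at the lower end. Cps1 (0.97 ± 0.15) and Slc6a12 (0.78 ± 0.14) were positive here too, and so was Slc25a15 (0.70 ± 0.13), which was not called in A14:A8. The difference between both crosses was not tested. With 10 surrogate variables 13 members were called in A6:A8 (3.18% of all genes), with a median of 0.33.

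The remaining crosses with A8 followed with lower counts that depended on the covariates. A17:A8 had 13 positive and 0 negative member interactions (all genes 4.95% and 3.73%; members' median 0.42) and A3:A8 14 and 0 (4.91% and 2.66%; median 0.38). Slc6a12 (0.70 ± 0.15), Gpt (0.66 ± 0.16) and Agxt (0.63 ± 0.16) led the called members of A17:A8, and Tat (1.38 ± 0.34), Got1 (1.02 ± 0.32) and Sds (0.99 ± 0.27) those of A3:A8, a cross of 3 mice. With 10 surrogate variables 0 members were called by edgeR in either cross, where 0.00753% and 0.293% of all genes were called, while the members' medians were 0.26 and 0.23. DESeq2 with 5 called 14 members in each (9.01% and 8.38% of all genes). Without mouse E689 4 members were called in A3:A8, and without E688 9, while A17:A8 ranged from 9 (without E310 or E608) to 18 (without E16).

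Crosses of A14 with sires other than A8 had fewer. A14:A10 had 8 positive and 1 negative interaction among the members (2.45% and 1.72% of all genes), led by Mat1a (0.79 ± 0.18), Aass (0.73 ± 0.19) and Cps1 (0.64 ± 0.16). A14:A5 had 7 and 0 (2.49% and 1.55%), with Cps1 and Aass at 0.79 ± 0.16 and 0.79 ± 0.18. A14:A4 had 3 and 0 (2.58% and 2.05%), namely Hal (0.58 ± 0.18), Mat1a (0.58 ± 0.18) and Nags (0.42 ± 0.12), while edgeR called 0 in a new fit without the mouse with low Y-linked counts, 2 without it when surrogate variables and dispersions were kept, and 0 without mouse E744. A3:A10 had 1 and 1 (0.436% and 0.737%), Arg1 at 0.42 ± 0.11 and Otc at -0.40 ± 0.09. A6:A4 had 1 and 0 (0.233% and 0.309%), Agxt at 0.61 ± 0.16. With 10 surrogate variables edgeR called 0 members in A14:A10 and A14:A4 (0.0376% and 1.19% of all genes), 0 in A6:A4 (0%) and 1 each in A14:A5 and A3:A10 (0.926% and 1.47%). DESeq2 with 5 called 10 in A14:A10, 3 in A14:A4 and 1 in A6:A4 (4.47%, 5.16% and 0.88% of all genes).

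In 6 crosses edgeR and DESeq2 each called 0 members. For A17:A10 the share of all genes called was 0.113%, for A17:A4 1.21% and for A6:A10 0.0527%, and it was 0% for A17:A5, A3:A5 and A6:A5. At an unadjusted p under 0.05, 13 members were counted in A17:A10 (12.3% of all genes), 10 in A17:A4 (15.6%), 6 in A3:A5 (4.49%), 4 in A17:A5 (9.32%), 3 in A6:A10 (11.8%) and 1 in A6:A5 (5.68%).

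In each of the 106 called interactions of members, the double CSS stood nearer to B6 than the sum of its main effects, by distance without regard to side. In some the double CSS lay on the other side of B6 at a like distance. Tdo2 in A14:A8 was at -0.37 ± 0.10 against a sum of 0.38, and Kmo in A6:A8 at 0.13 ± 0.07 against -0.15. Tdo2 was itself called lower than B6 there (FDR 0.0128). Over all genes this held for 94.6% of 11879 called interactions. The share of the fitted strain variation that an additive model left out had a median of 0.60 over the 40 members with a strain effect and 0.577 over all 6825 such genes, and the difference between both was not tested. Among the members it was highest for Kmo (0.827) and Cps1 (0.790) and lowest for Cth (0.358). The share was well above 0 also where the joint test of the interactions was not called. It was 0.508 for Hpd (FDR 0.378) and 0.385 for Bhmt (FDR 0.47), and the joint test was not called for Cth either (FDR 0.13). The study's methods state that a share of this kind may be biased slightly upward.

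**Figure D4:**
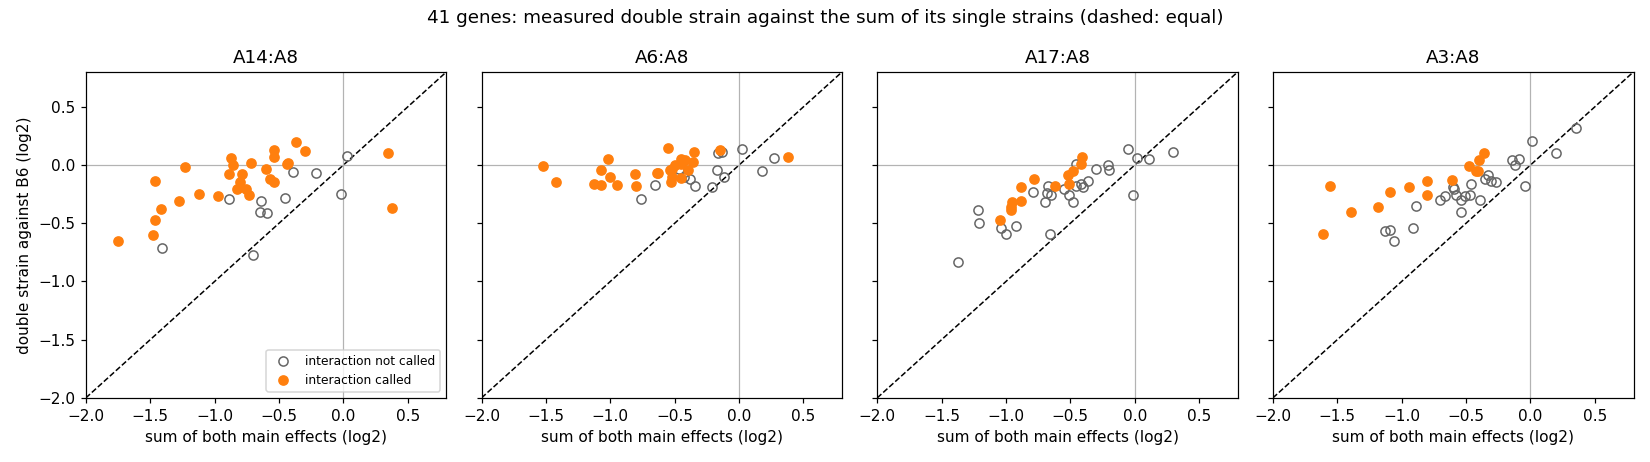
For the 4 crosses with A8, the measured log2 difference of the double CSS from B6 (vertical) against the sum of both main effects (horizontal), 1 point per gene, filled where the interaction was called, with the dashed line where both are equal. In A6:A8 the points lie near 0 on the vertical axis (median -0.04) while the sums have a median of -0.47.

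Measured directly against B6, the double CSSs with A8 had fewer members called than A8 itself. In A6:A8, edgeR called 0 members against B6 (2.55% of all genes), and their median difference was -0.04, where the main effects summed to -0.47. Got1 was at -0.01 ± 0.20 against a sum of -1.52, and Agxt at 0.05 ± 0.11 against -1.02. In A14:A8, 9 members were called, all lower (4.91% of all genes in either direction), with a median of -0.15 against a sum of -0.72. Cth (-0.77 ± 0.14), Tat (-0.71 ± 0.22), Aass (-0.60 ± 0.13), Mat1a (-0.47 ± 0.12) and Agxt (-0.38 ± 0.11) were among them, while Cps1 (-0.14 ± 0.11), Slc6a12 (-0.02 ± 0.10) and Fah (-0.00 ± 0.06) were not called. In A17:A8, 9 members were lower (6.16% of all genes in either direction). In A3:A8, 3 were lower and 1, Otc, was higher (1.8% in either direction). The other double CSSs with members called against B6 were A14:A4 with 16 lower, A3:A5 with 7 lower and 4 higher, and A6:A4 with 1, Tat, lower. The shares of all genes called there in either direction were 14.1%, 13.4% and 4.94%. At an unadjusted p under 0.05, 2 members differed from B6 in A6:A8 (16.3% of all genes), 18 in A14:A8 (20%), 21 in A17:A8 (21.4%) and 17 in A3:A8 (15.2%). In A14:A4 the sum of main effects (median -0.50) lay further from 0 than the measured median of -0.17.

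Otc was called only against the common direction, and the tryptophan genes were called in both. Otc lies on the X chromosome (chrX:10252305-10321024, plus strand) and was called higher in A4, A6, A8 and A14, each time by 0.15 to 0.20, and its 4 called interactions (A14:A10, A14:A8, A3:A10 and A6:A8) were negative, between -0.41 and -0.26. The 4 tryptophan genes were called in 5 of 32 main effects, 3 higher and 2 lower, and in 2 of 60 interactions, 1 positive (Kmo in A6:A8, 0.27 ± 0.10) and 1 negative. Over all genes, 11.1% of main effects and 5.96% of interactions were called. Tdo2 was at 3287 to 5204 CPM in A8 (median 4208) and 3681 to 5141 in A14 (median 4343), against 2381 to 4867 CPM in B6 (median 3579), and neither difference was called. In A14:A8 it was at 2707, 2733, 2874, 2899 and 3109 CPM, below every A8 and A14 mouse. That gave an interaction of -0.74 ± 0.14 (FDR 1.30e-05) and a difference of -0.37 ± 0.10 from B6 (FDR 0.0128), where the main effects summed to 0.38. Kynu, which cleaves kynurenines, was at 251, 301 and 336 CPM in A4 and 158, 244 and 286 CPM in B6.

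**Figure D5:**
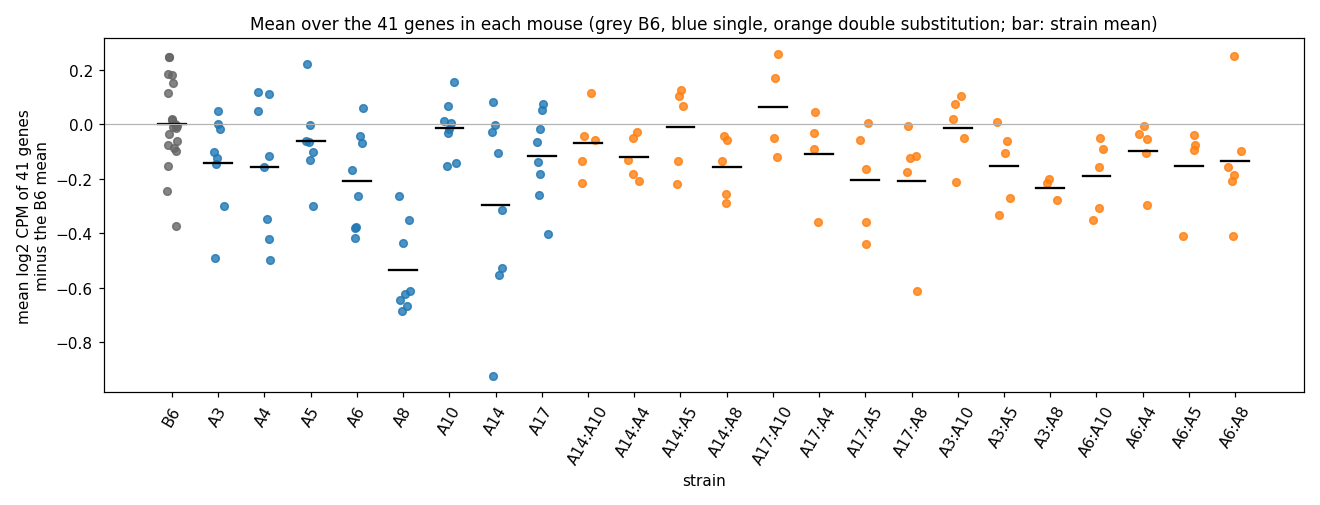
Mean over the 41 genes of log2 CPM minus the B6 mean, without surrogate variables, in each mouse (points) of the 24 strains, with the strain mean as a bar. A8 has the lowest mean (-0.54), A14 the widest range (-0.92 to 0.08), and the double CSSs with A8 lie between -0.23 and -0.14.

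As a summary per mouse, the mean of log2 CPM over the 41 genes was set against the B6 mean. It was 0.00 ± 0.16 (SD, n = 20) in B6 and ranged from -0.37 to 0.25. All 8 A8 mice were below 0 (-0.68 to -0.27, mean -0.54 ± 0.16), and the A14 mice ran from -0.92 to 0.08 (mean -0.30 ± 0.35). Among the double CSSs the strain mean was between -0.23 (A3:A8) and 0.06 (A17:A10), with -0.16 in A14:A8, -0.14 in A6:A8 and -0.21 in A17:A8. This mean also followed the surrogate variables: its correlation with the third was 0.75 over the 20 B6 mice and 0.47 over all mice, a description over mice that share strains and library depth.

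Other genes of amino acid metabolism, from a list of 56 of which 55 were in the table, were called mostly in the same direction. In A8, 27 of the 55 were lower and 2 higher (median -0.20), and in A14 26 and 1 (median -0.15). The mitochondrial aspartate aminotransferase Got2 was among those lower, at -0.55 ± 0.07 in A8 and -0.44 ± 0.06 in A14, and Hibch, an enzyme of valine breakdown, was higher in A8 (0.20 ± 0.06). The interaction was positive for 27 and negative for 4 in A14:A8, and for 20 and 7 in A6:A8.

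Of 12 amino acid carriers, 8 were lower in A8 and 0 higher (median -0.37), and 6 were lower and 1 higher in A14. Slc43a1 (-0.80 ± 0.15) and Slc7a2 (-0.79 ± 0.12) were lowest in A8, and Slc38a3 (-0.57 ± 0.10) and Slc43a1 (-0.56 ± 0.13) in A14, where Slc7a7 was higher (0.46 ± 0.13). Of 14 regulators, 7 were lower and 1 higher in A8. The coactivator Ppargc1a (-0.84 ± 0.21) and Foxo1 (-0.46 ± 0.14) were lower, and the glucocorticoid receptor Nr3c1 was higher (0.25 ± 0.05). Of the 14 in A14, 4 were lower and 1 was higher. Lower were Ppargc1a (-0.55 ± 0.19), Ppara (-0.32 ± 0.09), Hnf4a (-0.29 ± 0.08) and Sirt5 (-0.24 ± 0.09), and Nr3c1 was higher (0.14 ± 0.05). Hnf4a was also called lower in A3, A4, A6 and A8. Its interaction was positive in A14:A8 (0.41 ± 0.13), A6:A8 (0.41 ± 0.12) and A3:A8 (0.46 ± 0.14), and not called in A17:A8 (0.27 ± 0.13, FDR 0.195). The interaction of Ppargc1a was called in A6:A8 (1.10 ± 0.31) and A3:A8 (1.30 ± 0.35). It was not called in A14:A8 (0.32 ± 0.33, FDR 0.497) or A17:A8 (0.34 ± 0.33, FDR 0.577). Ppargc1a was also lower in A3 (-0.98 ± 0.19) and A6 (-0.67 ± 0.19). Some genes stand on more than 1 list. Slc25a13 is on both the list of 56 and that of carriers. Of the periportal and pericentral genes given below, Etnppl and Oat are also on the list of 56, and Slc1a2 is also on that of carriers.

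In A8, A14, A14:A8 and A6:A8, several of the 6 hepatocyte markers moved in the direction of the members. Of the 6, 5 were called lower in A8 and 3 in A14, with Alb at -0.48 ± 0.10 and -0.40 ± 0.09. The interaction was positive for 4 in A14:A8 (Alb 0.83 ± 0.16) and for 3 in A6:A8, where Alb was not called (0.19 ± 0.15, FDR 0.365). Ttr was called in none of these. Members were also called in other effects, where few markers were. Of the 6 markers, 0 were called in A3, A4 and A17:A8, 1 was higher in A6 and 1 positive in A3:A8. Their summed level ran from 81022 over 99043 to 135832 CPM in B6 (lowest, median, highest), from 44802 over 66292 to 93970 CPM in A8, from 51089 over 74655 to 107255 CPM in A14, and back to a median of 97563 CPM in A14:A8 and 85406 in A6:A8. Of 7 periportal genes outside the members, 5 were lower and 1 higher in A8, with a summed median of 3853 CPM against 6128 in B6. Of 9 pericentral genes, 0 were lower and 1 higher, although their summed median was 6056 CPM in A8 and 8889 in B6. The summed markers of other cells ran from 452 to 740 CPM in B6 and 443 to 915 CPM in A8 for the 12 of Kupffer and other immune cells (0 higher, 1 lower in A8), from 267.9 to 340.9 and 292.1 to 365.5 CPM for the 6 of endothelial cells (1 higher, 2 lower), and from 331.2 to 459.5 and 365.0 to 465.9 CPM for the 6 of stellate cells (2 higher, 0 lower). For 4 of 5 bile duct markers they ran from 21.3 to 59.7 CPM in B6 and 31.4 to 75.5 CPM in A8 (1 higher), for 2 of 6 muscle markers from 27.6 to 71.8 and 35.5 to 69.6 CPM, and for the 4 of red cells from 104.1 to 688.5 and 149.6 to 444.6 CPM, with edgeR calling none of these muscle and red cell genes. Cela1, the 1 of 6 pancreas markers in the table, was higher in A8 (0.62 ± 0.14), at 3.27 to 6.43 CPM in B6 and 5.14 to 8.30 CPM in A8. The part of these markers in the members' changes was not tested, and in whole tissue fewer cells of a type and less RNA per cell cannot be told apart.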

How the data were processed

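Liver RNA of 154 mice was sequenced by the authors with single-end reads from stranded total RNA libraries. Per the labels and the study's methods, reads were aligned with TopHat2 to mm10, unmapped reads to an individualized A/J genome, and HTSeq counted reads per gene; the authors removed duplicate reads, outlier mice and low genes. The deposited values are raw read counts of 13289 genes, with 4638701 to 30465477 reads per mouse. The strand setting of the counting is not given in the sources used here, so for Gls2, Hpd, Kmo, Sds and Prodh reads of a gene on the opposite strand cannot be told apart. Of all genes, 13242 had a position in GENCODE vM21, and 47 were treated as lying off the substituted chromosomes. Mice were grouped by the strain label.

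Counts were TMM-normalized, and 5 surrogate variables were estimated with sva 3.50.0. One edgeR 4.0.16 quasi-likelihood model (R 4.3.3) was fitted to all mice, with coefficients for 8 main effects and 15 interactions against B6, the terms that the study's methods name. Its calls do not reproduce those of the study. Over all genes it called 11765 main effects and 11879 interactions, more of both than the study reports. In A17:A8 it called 658 genes positive and 496 negative, where the study lists only a few. The cause of this difference was not tested. P-values of the F-tests were adjusted by Benjamini-Hochberg over all genes, for each effect separately for genes on and off the substituted chromosomes, and the threshold was an FDR of 0.05. The joint tests and the contrasts of double CSSs with B6 were adjusted over all genes. The standard error (SE) of a log2 fold change was taken from its F statistic. CPM were computed from the counts, with a prior count of 2 for log2 CPM. The script was tested on simulated data.

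The 41 genes, the other lists and the tests were chosen with earlier results of these data known. Values by mouse were given for Agxt and Slc6a12, which the study names, for members called on their own chromosome, for the lowest joint p of each role, and for the 3 largest called changes in A8, A14, A14:A8 and A6:A8; of the other pathway genes, carriers and regulators, up to 2 in each direction were named for A8 and A14, and some of these are not reported here. Values by mouse of Otc, Tdo2 in other strains, Kynu and the other members shown were chosen after their values were seen. So were the regulators Hnf4a and Sirt5. Alternatives were 0 or 10 surrogate variables, DESeq2 1.42.0, its size factors, an adjustment over all genes at once, a minimum of 15 counts in 75% of mice, the omission of mouse E733 and of single mice. The study's methods state that minimum as already applied, but the deposited table does not meet it over the 154 mice used here: 11852 of its 13289 genes do, and shares of all genes refer to the table as deposited.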

Additional observations from a re-analysis of the deposited data

Results flagged for a closer look

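Bckdha stood apart in 1 of 72 groups of 4 to 10 mice that were examined for a mouse far from the rest. In A6:A8, mouse E662 was at 7.26 log2 CPM, and the nearest of the other mice at 7.49. Chance gives such a distance in about 1 of 20 groups.

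In 106 interactions of members the effect of 1 substitution differed with the other present, by the interaction test itself. Only the 3 largest called ones of A14:A8 and of A6:A8, picked for their size, are listed here. In A14:A8 these were Cps1 (1.33), Slc6a12 (1.21) and Got1 (1.09), and in A6:A8 Got1 (1.51), Tat (1.26) and Agxt (1.07), all on the log2 scale.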

How the results depend on the processing

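The number of surrogate variables moved the counts of members called most. With 10, the main effects had 22 (A8), 14 (A14), 6 (A3), 1 (A4), 0 (A6), 5 (A10) and 1 (A17), in total 49 in place of 99, and the interactions 13 (A6:A8), 0 (A14:A10, A14:A4, A17:A8, A3:A8 and A6:A4), 1 (A14:A5) and 1 (A3:A10), in total 35 in place of 106, with 19 in the joint interaction test in place of 31; Gpt2 in A14 went from -0.31 to 0.03. Of all genes, 10 gave 9.2% (A8), 5.96% (A14), 3.46% (A3), 2.71% (A4), 3.01% (A6), 8.04% (A10) and 0.948% (A17). The crosses had 3.18% (A6:A8), 0.0376% (A14:A10), 1.19% (A14:A4), 0.00753% (A17:A8), 0.293% (A3:A8), 0% (A6:A4), 0.926% (A14:A5) and 1.47% (A3:A10). With 0, A3 had 1 (0.918% of all genes), A6 11 (9.65%), A10 0 (9.87%), A14:A4 8 (9.74%), A17:A8 25 (24.9%) and A3:A10 0 (0.534%). The stricter filter on counts gave 2 in A17 (1.46% of the genes it kept), 4 in A14:A5 (2.56%), 8 in A3:A8 (5.39%) and 2 in A6:A4 (2.07%). Without the mouse with low Y-linked counts, A14:A4 had 0 in a new fit (1.93% of all genes) and 2 with surrogate variables and dispersions kept. DESeq2 and its size factors moved no count of members by over 1.5 times, nor did a single adjustment over all genes.

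Leaving out 1 mouse of a double CSS at a time, with surrogate variables and dispersions kept from all mice, gave 30 to 31 in A14:A8, 25 to 28 in A6:A8, 9 to 18 in A17:A8, 4 to 11 in A3:A8, 5 to 8 in A14:A10 (5 without E548), 0 to 5 in A14:A4 (0 without E744, 5 without E485), 4 to 9 in A14:A5 (4 without E176), 1 to 2 in A3:A10 (1 without E395 or E719) and 0 to 2 in A6:A4 (0 without E11, E210 or E520, 2 without E713). Omitting single A8 and A14 mice, chosen after seeing the data, gave 32 to 35 in A8 and 22 to 30 in A14, 29 to 33 in A14:A8 and 26 to 30 in A6:A8. Shares of all genes are not given for these fits with a mouse left out. The cause of these shifts was not tested. No paired analysis was possible because the labels carry no replicate numbers that groups share. Double CSSs of 3 to 6 mice limit the precision of the interactions.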
